A study of Mus musculus with 7 samples.

Results

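The B-lineage commitment genes are a set of 9 genes that are switched on in the course of B-cell development. They were chosen by name from the deposited table, which holds 48440 genes, and each of the 9 symbols matched a single row. The set holds the transcription factors Ebf1 and Pax5, the surrogate light chain genes Igll1 and Vpreb1 with the related Vpreb3, the antigen receptor signalling genes Cd79a, Cd79b and Blnk, and Ms4a1, which codes for the surface protein CD20. Their RNA was measured in LSK cells, the bone marrow (BM) cells that carry Sca1 and cKit but no lineage markers. BM from wild-type donors, or from donors with a constitutive endonuclease-mediated PROSER1 KO, had been given to C57BL/6 recipients irradiated with 9.5 Gy. LSK cells were sorted from the recipients' BM on day 77 and gave 4 wild-type and 3 PROSER1 KO libraries of polyA RNA. Cells of both groups had therefore passed through transplantation. The KO was not limited to a cell type or time, and the labels do not say whether surviving host cells were kept out of the sort, which antibodies formed the lineage gate, or how old the mice were. The labels call the libraries biological replicates without saying which animals or how many animals each came from, so that p-values measure only the spread between these libraries.

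EBF1 opens the B-lineage programme and switches on Pax5, and PAX5 then holds cells to the B lineage by activating B-lineage genes and silencing those of other lineages. The surrogate light chain, made from the products of Igll1 (lambda 5), Vpreb1 and Vpreb2, pairs with a newly made heavy chain to form the pre-B cell receptor. CD79a and CD79b are the signalling chains of that receptor and of the mature one, and BLNK is the adaptor that carries their signal onward. LSK cells include the lymphoid-primed progenitors from which B-lineage cells descend, and transcripts of early lymphoid genes are known in this population.

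Depth was between 33143619 and 45140743 read pairs on genes per library. The values were normalized counts, that is, read pairs per gene divided by a size factor for each library, and 3 read pairs, the most that a 0 still leaves possible, equal 2.54 to 3.48 normalized counts (counting error only). The targeted gene, Proser1 (chromosome 3, 53463666 to 53481755, GRCm38 as for all positions here), had 2088 ± 55.5 normalized counts (SD, n = 4) in wild-type against 2387 ± 67.5 (SD, n = 3) in the other group, with a log2 fold change of 0.19 (limma, adjusted p = 0.204). Its mRNA was not lower in the libraries labelled PROSER1 KO, so every direction given here rests on the labels, and those libraries are called KO-labelled. The gate genes Kit, Ly6a and Cd34 had between 3961 and 36918 normalized counts in every library, and 0 of the 8 LSK gate genes examined were called by limma, edgeR or DESeq2, with 0 under an unadjusted p of 0.05 in each. Groups were compared with limma on log2 values to which a pseudocount of 1 had been added, for the 16251 genes that averaged 10 or more, and a call needed more than a 1.5-fold difference together with a p-value under 0.05 after Benjamini-Hochberg adjustment. The pseudocount makes the fold changes of low genes smaller than they are.

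All 9 genes passed the filter, and 0 of them were called, against 0.258% of all genes tested (0.123% higher and 0.135% lower in the KO-labelled libraries). At an unadjusted p-value under 0.05 in limma there were 3, Ebf1, Pax5 and Igll1, against 9.73% of all genes. On whole read pairs, edgeR called 0 of the 9, against 0.246% of all genes, with 4 under an unadjusted 0.05 (the same 3 and Ms4a1). DESeq2 called 0 of the 9, against 0.873% of all genes, with 2 under an unadjusted 0.05 (Igll1 and Pax5). Here and below, the share of all genes under an unadjusted 0.05 was computed for limma only, so the edgeR and DESeq2 counts have no such background. Of the log2 fold changes, 6 lay above 0 and 3 below, with a median of 0.53, where the median over all genes tested was 0.00. The directions were mixed. The transcription factors, Igll1, Vpreb1, Vpreb3 and, by a small margin, Blnk had their higher means in the libraries labelled PROSER1 KO, and Ms4a1, Cd79a and Cd79b had theirs in wild-type. In RNA from sorted cells in bulk, fewer cells of a type and less RNA per cell cannot be told apart.

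**Figure D1:**
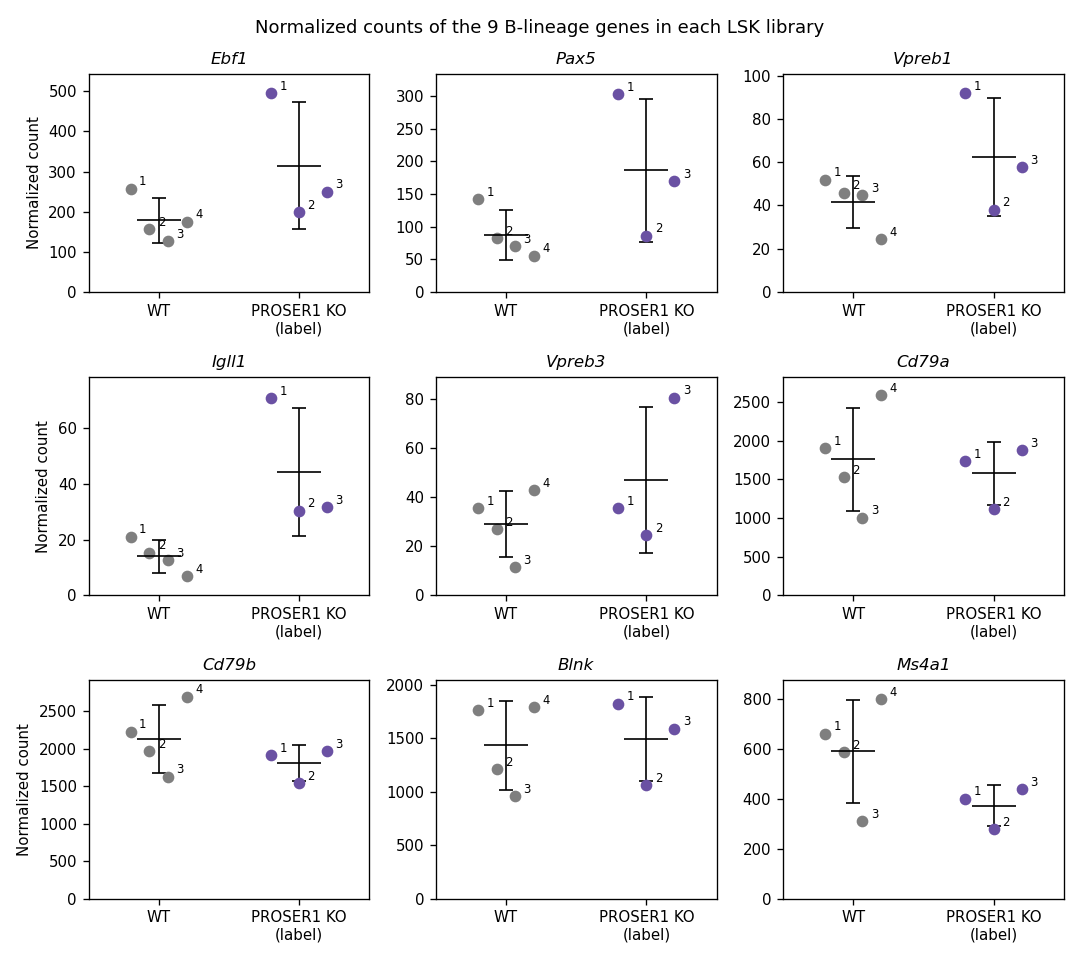
Normalized counts of the 9 B-lineage genes (vertical axes, linear from 0, a scale for each gene) in the 4 wild-type (WT) and 3 PROSER1 KO libraries, which are numbered by replicate, with the mean (line) and SD (bars) of each group. The groups separate in Igll1, where the libraries labelled PROSER1 KO start at 30.5 and wild-type ends at 21.2, and overlap in the other 8 genes.

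Ebf1 (ENSMUSG00000057098) lies on the forward strand of chromosome 11 (44617317 to 45008091) and codes for the factor that initiates B-cell specification. Wild-type replicates 1 to 4 had 258, 156, 126 and 175 normalized counts of Ebf1, and the KO-labelled replicates 1 to 3 had 494, 199 and 249.6. PROSER1 KO replicate 1 stood above all wild-type libraries, and the other two lay within the wild-type range. Group means were 179 ± 56.3 (SD, n = 4) and 314 ± 158 (SD, n = 3), and the log2 fold change was 0.75 (95% confidence interval 0.02 to 1.47, limma adjusted p = 0.494). Without PROSER1 KO replicate 1 the log2 fold change of Ebf1 was 0.37, and without PROSER1 KO replicate 2 it was 1.02.

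Pax5 (ENSMUSG00000014030), the commitment factor, lies on the reverse strand of chromosome 4 (44524757 to 44710487). Wild-type replicates 1 to 4 held 142, 82.9, 70.1 and 55.6 normalized counts, and KO-labelled replicates 1 to 3 held 303, 86.3 and 169.9. Replicates 1 and 3 of the libraries labelled PROSER1 KO exceeded every wild-type library, whereas replicate 2 fell inside the wild-type range. The means of 87.8 ± 38.0 (SD, n = 4) and 186 ± 109 (SD, n = 3) gave a log2 fold change of 0.99 (95% confidence interval 0.03 to 1.95, limma adjusted p = 0.497). It was 0.55 without PROSER1 KO replicate 1. The antisense-strand genes 5730488B01Rik and Gm12462 share 636 and 125 exon bases with Pax5 (7.18% and 1.41% of its exon length), and since the strand setting of the counting was not stated, reads of these stretches could not be assigned with certainty.

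Igll1 (ENSMUSG00000075370, reverse strand of chromosome 16, 16860671 to 16863985), which codes for the lambda 5 part of the surrogate light chain, showed the largest log2 fold change of the 9. It had 21.2, 15.3, 12.6 and 6.96 normalized counts in the 4 wild-type libraries, in order of replicate number, against 70.9, 30.5 and 31.7 in the 3 KO-labelled ones. The lowest library labelled PROSER1 KO was above the highest wild-type library. Igll1 was the 1 gene of the 9 whose groups did not overlap, a state found in 10% of all genes tested. Group means were 14.0 ± 5.90 (SD, n = 4) and 44.4 ± 23.0 (SD, n = 3), and the log2 fold change of 1.58 had a 95% confidence interval from 0.54 to 2.61 (limma, adjusted p = 0.288). The adjusted p-value was 0.26 in edgeR and 0.0769 in DESeq2, so that no tool called it. These values rest on 6 to 68 read pairs per library. Without PROSER1 KO replicate 1 the log2 fold change of Igll1 was 1.19.

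Vpreb1 (ENSMUSG00000059305), which codes for the variable-like part of the surrogate light chain, lies on the same strand of chromosome 16 (16868403 to 16870843). The 4 wild-type libraries had 51.9, 46.0, 44.8 and 24.3 normalized counts of Vpreb1 and the 3 KO-labelled libraries 91.8, 38.1 and 57.6, in order of replicate number. Wild-type replicate 4 was the lowest library and PROSER1 KO replicate 1 the highest, with PROSER1 KO replicate 2 inside the wild-type range. Group means were 41.8 ± 12 (SD, n = 4) and 62.5 ± 27.2 (SD, n = 3), and the log2 fold change was 0.53 (95% confidence interval -0.29 to 1.36, limma adjusted p = 0.682). It was 0.22 without PROSER1 KO replicate 1, 0.30 without wild-type replicate 4 and 0.84 without PROSER1 KO replicate 2. Vpreb1 also shares 108 exon bases (9.01%) with Top3b on the opposite strand.

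The paralog Vpreb2 (ENSMUSG00000059280, chromosome 16, 17980428 to 17981273) is no member of the set but differs from Vpreb1 at only 9 of 429 coding bases (97.9% identity), so that the division of reads between them is uncertain. To show how alike they are, the coding bases 1 to 150 of both transcripts (GENCODE M21) are given 5′ to 3′, with capitals at the 3 positions where they differ.
Vpreb1: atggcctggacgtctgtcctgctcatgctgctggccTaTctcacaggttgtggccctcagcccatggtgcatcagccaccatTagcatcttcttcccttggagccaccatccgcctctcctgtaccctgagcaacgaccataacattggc
Vpreb2: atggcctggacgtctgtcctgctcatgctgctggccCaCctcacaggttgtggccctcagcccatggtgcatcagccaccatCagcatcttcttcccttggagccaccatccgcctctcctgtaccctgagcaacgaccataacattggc
Vpreb2 had 19.2, 27.9, 20.7 and 25.5 normalized counts in the wild-type libraries and 54.2, 30.5 and 43.2 in the KO-labelled libraries, in the same order. Its groups did not overlap, and the log2 fold change was 0.82 (95% confidence interval 0.12 to 1.51, limma adjusted p = 0.425). PROSER1 KO replicate 1 was the highest library for Igll1, Vpreb1 and Vpreb2 alike. By the same alignment, the coding sequence of Vpreb1 was 41.9% identical to that of Igll1 and 48.6% identical to that of Vpreb3.

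Vpreb3 (ENSMUSG00000000903, forward strand of chromosome 10, 75943057 to 75949657) codes for a protein that binds newly made heavy chains in B-lineage cells. Wild-type replicates 1 to 4 held 35.6, 27.0, 11.5 and 42.9 normalized counts, and KO-labelled replicates 1 to 3 held 35.5, 24.5 and 80.6. The high value of PROSER1 KO replicate 3 stood apart from the other 6 libraries, which overlapped. The log2 fold change of 0.63 had a 95% confidence interval from -0.54 to 1.80 (limma, adjusted p = 0.738), on 10 to 84 read pairs per library. It was 0.16 without PROSER1 KO replicate 3, 0.25 without wild-type replicate 3 and 0.99 without PROSER1 KO replicate 2. Unlike Igll1, Vpreb1 and Vpreb2, Vpreb3 was not at its highest in PROSER1 KO replicate 1.

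Cd79a (ENSMUSG00000003379, forward strand of chromosome 7, 24897381 to 24902197) codes for the alpha signalling chain of the B-cell antigen receptor. Wild-type replicates 1 to 4 had 1905, 1531, 1006 and 2586 normalized counts of Cd79a, against 1737, 1114 and 1881 in KO-labelled replicates 1 to 3. All 3 libraries labelled PROSER1 KO lay within the wild-type range, which spanned 2.57-fold. Group means were 1757 ± 665 (SD, n = 4) and 1577 ± 407 (SD, n = 3), and the log2 fold change was -0.11 (95% confidence interval -0.76 to 0.54, limma adjusted p = 0.940). Its direction turned to 0.10 without wild-type replicate 4 and to 0.12 without PROSER1 KO replicate 2.

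Cd79b (ENSMUSG00000040592, reverse strand of chromosome 11, 106311341 to 106314762), the beta chain, had 2229, 1965, 1629 and 2694 normalized counts in the wild-type libraries against 1917, 1540.1 and 1969 in the KO-labelled ones, by replicate number. Wild-type replicate 4 was again the highest library, and PROSER1 KO replicate 2 lay just below wild-type replicate 3. The log2 fold change was -0.22 (95% confidence interval -0.57 to 0.13, limma adjusted p = 0.694). It was -0.34 without wild-type replicate 3 and -0.10 without wild-type replicate 4. Cd79b varied least among the 9, by 1.75-fold from the lowest to the highest library, where Igll1 varied by 10.2-fold.

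Blnk (ENSMUSG00000061132, reverse strand of chromosome 19, 40928927 to 40994535), the adaptor downstream of the receptor, had 1766, 1213, 959.8 and 1793 normalized counts in the 4 wild-type libraries by replicate number. The KO-labelled replicates 1 to 3 held 1825, 1060.3 and 1591. The groups overlapped almost completely, with means of 1433 ± 413 (SD, n = 4) and 1492 ± 392 (SD, n = 3) and a log2 fold change of 0.07 (95% confidence interval -0.48 to 0.62, limma adjusted p = 0.954). The direction of Blnk turned to -0.11 without wild-type replicate 3 and to -0.09 without PROSER1 KO replicate 1.

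Ms4a1 (ENSMUSG00000024673, reverse strand of chromosome 19, 11249675 to 11266241) codes for CD20, which appears later in B-cell development than the surrogate light chain. Wild-type replicates 1 to 4 held 659.7, 586, 310.3 and 799 normalized counts of Ms4a1, and KO-labelled replicates 1 to 3 held 399.5, 278 and 438. In all, 3 wild-type libraries stood above all those labelled PROSER1 KO, but wild-type replicate 3 lay among them. The means of 589 ± 205 (SD, n = 4) and 372 ± 83.2 (SD, n = 3) gave a log2 fold change of -0.61 (95% confidence interval -1.26 to 0.05, limma adjusted p = 0.540). With single libraries left out, the log2 fold change of Ms4a1 ran from -0.89 without wild-type replicate 3 (limma adjusted p = 0.142) to -0.41 without PROSER1 KO replicate 2 (0.740), and it was -0.43 without wild-type replicate 4 (0.669).

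Summed over the 9 genes, the level was 6259 ± 1742 normalized counts (SD, n = 4) in wild-type against 5904 ± 1343 (SD, n = 3) in the KO-labelled libraries. Cd79a, Cd79b and Blnk carry most of this sum. By replicate number it was 7068, 5622, 4170.1 and 8177 in the wild-type libraries and 6873, 4371 and 6468 in the KO-labelled ones. Wild-type replicate 3 and PROSER1 KO replicate 2 were the low libraries, and both groups covered much of the same range.

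Levels of different genes were compared per kb of exon, with the exons of all annotated transcripts of a gene merged. This length can exceed that of any single transcript, which lowers the level per kb. Exon lengths came from a GENCODE release (M21) other than the one used for counting. By the median over the 7 libraries, in normalized counts per kb, Cd79b (1373) and Cd79a (1192) came first. Blnk (266) followed at a distance, then Ms4a1 (70.8), Vpreb3 (41.3), Vpreb1 (38.3), Ebf1 (20.4), Igll1 (9.78) and Pax5 (9.75). The ranges over libraries separated Cd79a from Blnk, whose highest value (305 per kb) was below the lowest of Cd79a (690.3 per kb), and they separated Blnk from Ms4a1. The ranges of every other pair of neighbours in this order overlapped. Within libraries, however, Cd79b was above Cd79a, Vpreb1 above Ebf1 and Ebf1 above Igll1 in 7 of 7, and Ms4a1 was above Vpreb3 in 6 of 7. Vpreb3 was above Vpreb1 in 2 of 7 and Igll1 above Pax5 in 1 of 7, so that the order of these pairs by median did not hold library by library. For scale, the progenitor genes Kit (2866 to 3631 per kb) and Flt3 (3335 to 4615 per kb) lay above Cd79b (1076 to 1883 per kb) in every library. The early lymphoid gene Dntt (12144 to 19572 per kb) lay higher still, whereas Il7r (299 to 637 per kb) and Rag1 (104 to 442 per kb) lay below Cd79b.

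**Figure D2:**
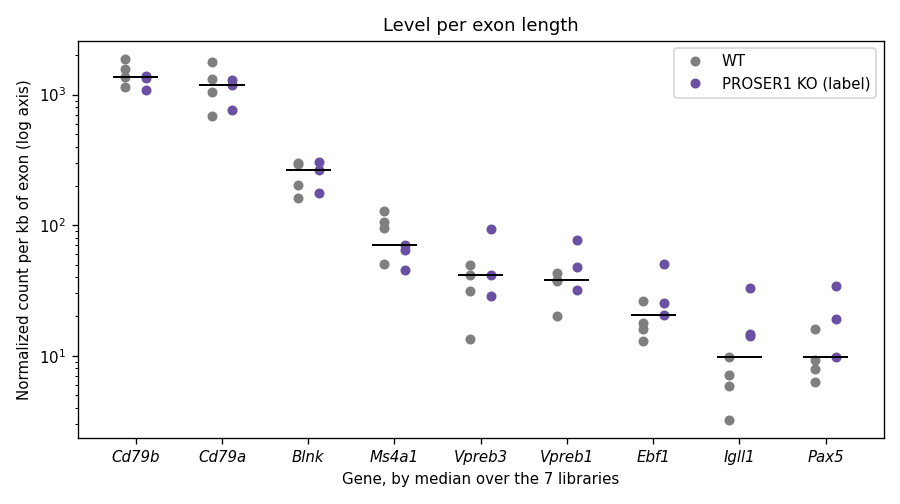
Normalized count per kb of exon (log axis) of the 9 B-lineage genes, ordered by their median over the 7 libraries (line), with a point for each library, grey for wild-type (WT) and purple for PROSER1 KO by label. Cd79b and Cd79a lie near 1000 per kb, and Igll1 and Pax5 have medians just under 10.

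The 9 genes followed several different profiles across the libraries. PROSER1 KO replicate 1 was the highest library for 5 of them (Ebf1, Pax5, Vpreb1, Igll1 and Blnk). Wild-type replicate 4 was the highest for Cd79a, Cd79b and Ms4a1 and, at the same time, the lowest for Pax5, Vpreb1 and Igll1. Wild-type replicate 3 was the lowest for Ebf1, Cd79a, Vpreb3 and Blnk, and PROSER1 KO replicate 2 was the lowest for Cd79b and Ms4a1. To describe likeness, log2 values were standardised per gene and the root-mean-square difference was taken between 2 profiles over the 7 libraries, in SD, so that 0 means the same shape. All profiles share the same libraries and size factors, so these distances are descriptions. Ebf1 lay near Pax5 (0.40) and Pax5 near Vpreb1 (0.39), Cd79a near Cd79b (0.33) and Cd79b near Ms4a1 (0.31), whereas Igll1 and Ms4a1 lay 1.72 apart.

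**Figure D3:**
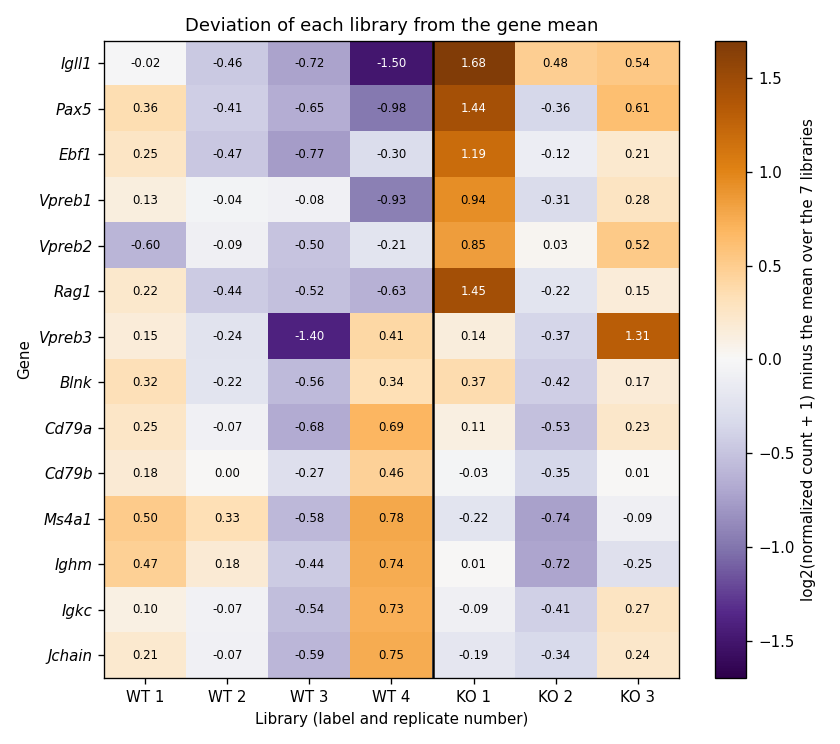
Log2(normalized count + 1) of each library minus the gene's mean over the 7 libraries (colour scale and printed value), for the 9 B-lineage genes with Vpreb2, Rag1, Ighm, Igkc and Jchain. PROSER1 KO replicate 1 (KO 1) is high for Igll1 (1.68), Pax5 (1.44) and Ebf1 (1.19), and wild-type replicate 4 (WT 4) is high for Ms4a1 (0.78) and Cd79a (0.69) beside the immunoglobulin genes.

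Transcripts of plasma cells, the antibody-secreting end of the B lineage, were near some members in profile and farther from others. All 10 of the plasma cell markers examined were above the filter and none was at 0. Their summed level ran from 1382080.3 to 3233333 normalized counts in wild-type and from 1303211 to 1912883 in the libraries labelled PROSER1 KO. Wild-type replicate 4 was the highest library for all 10, among them Ighm, Igkc and Jchain, as it was for Cd79a, Cd79b and Ms4a1. The profile of Ms4a1 lay 0.25 SD from that of Ighm, the heavy chain constant gene, and 0.57 SD from that of Igkc, the kappa light chain constant gene. These were the smallest and the largest distances of Cd79a, Cd79b and Ms4a1 from Ighm, Igkc and Jchain. The profile of Cd79a lay 0.27 SD from that of Igkc and 0.55 SD from that of Ighm. Blnk lay farther off, at 0.74 SD from Ighm, 0.66 SD from Igkc and 0.70 SD from Jchain. Ighm had 1391932 ± 449875 normalized counts (SD, n = 4) in wild-type against 924245 ± 226123 (SD, n = 3) in the other group (log2 fold change -0.56, limma adjusted p = 0.554). The log2 fold changes of all 10 plasma cell markers were below 0, as were those of 8032 of the 16251 genes tested. How far this shared direction rests on wild-type replicate 4 was not examined. PROSER1 KO replicate 3 was above wild-type replicates 1 to 3 for Igkc (664553) and Jchain (269328), but not for Ighm (947499). Of the 10 markers, 0 were called by limma, edgeR or DESeq2, with 0, 1 (Ighm) and 0 of them under an unadjusted 0.05. The part of such transcripts in the levels of Cd79a, Cd79b and Ms4a1 was not tested.

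Some T-cell transcripts were high in a library where the transcription factors were high. PROSER1 KO replicate 1, the highest library for Ebf1, Pax5 and Igll1, had 697 normalized counts of the T-cell receptor chain gene Cd3g, where the other 6 libraries had 20.9 to 52.9. The T-cell marker list, of which 9 of 10 genes passed the filter and none was at 0 in all libraries, summed to 2298 to 3101 normalized counts in wild-type and to 1907 to 4354 in the libraries labelled PROSER1 KO, again highest in replicate 1. In PROSER1 KO replicates 2 and 3 the sum of the list (1907 and 1948) was below every wild-type library. PROSER1 KO replicate 1 was not the highest library for Cd5 (93.9, against 116 in wild-type replicate 1). Nor was it for Cd8b1 (9.39, against 11.6 in wild-type replicate 4). Cd4 was below all wild-type libraries in the 3 KO-labelled ones (log2 fold change -0.61, limma adjusted p = 0.374), and Lck and Trbc2 were so in replicates 2 and 3. The profile of Cd3g lay 0.42 SD from that of Ebf1 and 0.49 SD from that of Pax5. None of the T-cell markers was called by limma, edgeR or DESeq2, with 1 (Cd4), 4 (Cd4 and the 3 Cd3 genes) and 1 (Cd4) under an unadjusted 0.05. DESeq2 gave no adjusted p-value for 2 of them. Without PROSER1 KO replicate 1, Ebf1, Pax5 and Igll1 kept log2 fold changes above 0 (0.37, 0.55 and 1.19), with limma adjusted p-values of 0.716, 0.716 and 0.504. The part of T-lineage cells in these values was not tested.

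The recombination genes Rag1 and Rag2, which both B and T precursors use, differed in profile. Rag1, a subunit of the V(D)J recombinase, had 1239.5, 783, 744 and 686 normalized counts in the wild-type libraries against 2919.8, 914 and 1182 in the KO-labelled ones, by replicate number. PROSER1 KO replicate 1 was the highest library, as for Ebf1 and Cd3g. The Rag1 profile differed by 0.28 SD from that of Ebf1 and by 0.24 SD from that of Cd3g. The log2 fold change of Rag1 was 0.80 (95% confidence interval 0.00 to 1.61, limma adjusted p = 0.512). Its partner Rag2 had a log2 fold change of 0.09 (limma, adjusted p = 0.935) and was as high in wild-type replicate 1 (816) as in PROSER1 KO replicate 1 (811).

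The wider B-lineage programme was followed in 51 further genes of 4 lists, and 0 of them were called by limma, edgeR or DESeq2 (lowest adjusted p = 0.204 in limma, 0.214 in edgeR and 0.0617 in DESeq2, each for Fcer2a). In limma 5 of the 51 were under an unadjusted 0.05, against 9.73% of all genes, in edgeR 5 and in DESeq2 6. Their median log2 fold change was -0.02, with 21 above 0 and 30 below, and in 4 of the 51 the groups did not overlap, against 10% of all genes.

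The 12 upstream regulators, factors such as IKZF1, TCF3 and SPI1 that act before or beside EBF1, had log2 fold changes close to 0. They ran from -0.24 for Ikzf3, a factor of later B-cell stages, to 0.11 for Bach2, a repressor that supports B-cell development, with a median of 0.01 and 0 under an unadjusted 0.05. Among the 10 lymphoid progenitor genes, the extremes were Rag1 and, at -0.61, Lef1, a transcription factor of pro-B and T precursors. Lef1 had 43.3 ± 11 normalized counts (SD, n = 4) in wild-type against 30.7 ± 19.6 (SD, n = 3) in the KO-labelled libraries (limma, adjusted p = 0.671). The cytokine receptors Flt3 and Il7r and the polymerase Dntt, which mark the steps just before EBF1, had log2 fold changes of 0.09, -0.08 and -0.03.

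The 14 genes of B cell receptor signalling had a median of -0.02 and ran from -0.76 for Fcrla to 0.10 for Pik3cd, the lymphocyte PI3-kinase subunit. Fcrla, an Fc receptor-like gene of B cells, had 1159, 849, 705 and 1519 normalized counts in the wild-type libraries against 669.7, 461 and 694 in the KO-labelled ones. Its groups did not overlap, and limma gave an adjusted p of 0.353. Among the 15 effector genes of B cells, 12 lay below 0, against 8032 of the 16251 genes tested, with a median of -0.13. Irf4 is on this list and on that of the plasma cell markers. Wild-type replicate 4 was the highest library for Irf4, Pou2af1, Cd74, Cd40, Fcmr, Fcer2a and Tnfrsf13c, as for the plasma cell markers. It was not so for Spib, Pou2f2, Cd24a, Cd37 and Bcl6, which also lay below 0. Fcer2a, the low-affinity IgE receptor CD23 of mature B cells, had the lowest log2 fold change of all 51, with 45.2, 65.8, 44.8 and 77.7 normalized counts in the wild-type libraries against 20.9, 22.8 and 30.7 in the KO-labelled ones. Its groups did not overlap, the log2 fold change was -1.18 (95% confidence interval -1.85 to -0.51), and the adjusted p-value of limma was 0.204. At the other end, Cd38, an ectoenzyme on many blood cells, had 175 ± 37.0 normalized counts (SD, n = 4) in wild-type against 248 ± 39.5 (SD, n = 3) in the KO-labelled libraries, a log2 fold change of 0.52 (limma, adjusted p = 0.440) with groups that did not overlap.

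**Figure D4:**
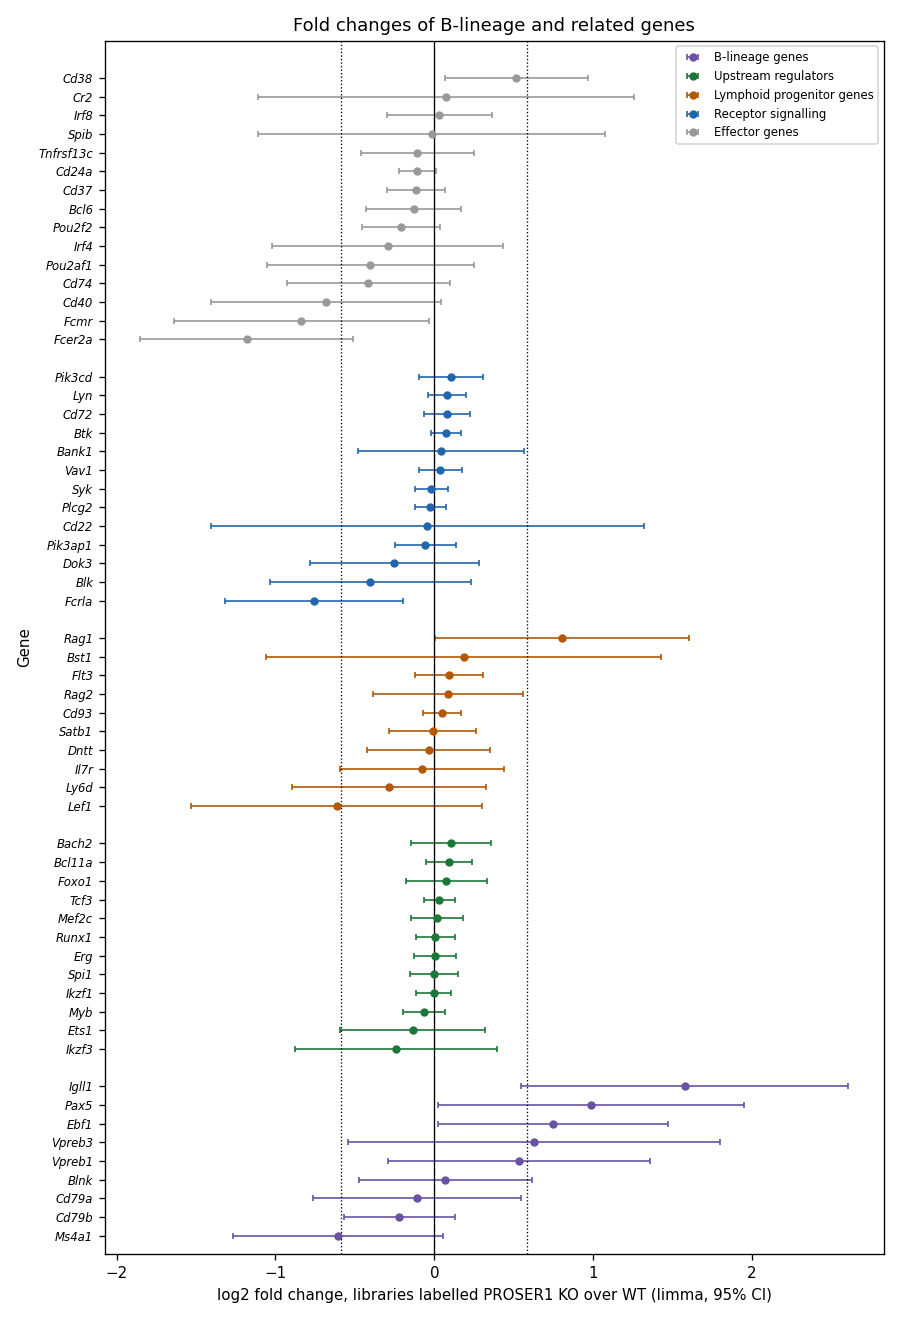
Log2 fold changes (points) with 95% confidence intervals from limma (bars) of the libraries labelled PROSER1 KO over wild-type, for the 9 B-lineage genes and for the reported genes of the 4 wider lists. The solid line marks 0 and the dotted lines a 1.5-fold change in either direction. Igll1 (1.58) is the highest and Fcer2a (-1.18) the lowest, and the upstream regulators lie close to 0.

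Over all genes tested, the profile nearest to each member was in all 9 cases that of a gene outside the lists followed here. Cd86, a costimulatory ligand, was nearest to both Ebf1 (0.23 SD) and Pax5 (0.21 SD). Lamc1 was nearest to Cd79a (0.12 SD), Prg2 to Cd79b (0.11 SD), Nub1 to Blnk (0.15 SD) and Cd300lf to Ms4a1 (0.08 SD). B4galt1 was nearest to Igll1 (0.10 SD), Egln1 to Vpreb1 (0.12 SD) and Tmf1 to Vpreb3 (0.11 SD). With 7 libraries and 16251 genes to choose from, close profiles are easily found, and these are named as descriptions.

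Promoters, taken as 250 bases before to 50 after the RefSeq start (GRCm38.p6), were at hand for 7 of the 9 genes and were searched on both strands for 3 motifs of B-lineage genes, none of which overlapped another. The octamer ATTTGCAT, which OCT factors bind, was found at Vpreb3 and Blnk and in 1.74% of all 32851 promoters. The E-box CAGGTG was found at Cd79a, Igll1, Vpreb1 and Blnk and in 20.2% of all promoters, and the EBF core CCCNNGGG at Igll1 and in 13.7%. The stretches with the octamer are given because it is the rarest of the 3 motifs, 5′ to 3′ on the strand of the gene, with the octamer in capitals.
Vpreb3, chr10:75948244-75948273, forward strand: tcagtgggctgATTTGCATgctctattgtg
Blnk, chr19:40994333-40994362, reverse strand: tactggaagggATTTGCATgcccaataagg
The octamer begins 45 bases before the RefSeq start of Vpreb3 and 130 bases before that of Blnk. Both stretches lie inside the GENCODE positions given above for these genes, whose starts differ from those of RefSeq. A match describes letters and shows no binding.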

How the data were processed

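Per the labels and the study's methods, the authors trimmed reads with Trimmomatic, mapped them with STAR (mm10, GRCm38.p6), summarised the pairs over genes with featureCounts and applied DESeq2 size factors. Versions were not given in the sources used here. The deposited values are this normalized signal per gene, with no filter on low values. Because a library's values are multiples of 1 step, its read pairs could be computed back (100% whole within 0.01). The table had 0 columns of other samples, and the 685 rows with no symbol, at most 0.135% of pairs, were kept.

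limma 3.58.1 in R 4.3.3 (trend in eBayes) was fitted to the whole table. edgeR 4.0.16 (quasi-likelihood) and DESeq2 1.42.0 were run on recovered read pairs. The main limma, edgeR and DESeq2 group fits were tested on simulated counts, whose spread was set by a formula and not estimated from these libraries. Libraries of a group differed by more than sampling noise and were counted separately. For counting, the methods name GENCODE M25, while the table's identifier column is headed vM10. Positions and exon lengths used here are from GENCODE M21, so levels per kb rest on another release than the counts, and 111 of 111 listed identifiers matched. Promoters are from RefSeq.

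The members and lists were chosen with earlier results of these data known. Named genes were the 9 members, Vpreb2, Proser1, the highest and lowest log2 fold change and any called gene of each wider list, fixed lymphoid, plasma cell and gate genes, and the gene nearest in profile to each member. Cd3g, Cd4, Cd5, Cd8b1, Lck, Trbc2 and the other Cd3 genes were named after their values were seen. The lists of plasmacytoid dendritic cell, granulocyte and monocyte, and erythroid markers gave 0 called genes in limma, edgeR and DESeq2, with 0 to 1 each under an unadjusted 0.05. Alternatives were other pseudocounts (0.1 and 10), filters (none, or a mean of 50), variance estimates, normalizations and tools, no fold minimum, the replicate number as a block, and each library left out. Results on 1 gene of this rule are not reported here.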

Additional observations from a re-analysis of the deposited data

Results flagged for a closer look

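In 2 of 31 quantities examined, the highest wild-type library was set off from the other 3. Among 4 values, a gap this wide arises by chance in about 1 of 20 groups. Rag2 had 816 normalized counts in wild-type replicate 1 and 496 to 523 in the other wild-type libraries, a gap of 0.915 of the group's range. Il7r, the interleukin 7 receptor of lymphoid progenitors, had 2971 in wild-type replicate 1 and 1748 to 1884 in the others, a gap of 0.889 of the range. None of the 9 B-lineage genes was set off in this way, and groups of 3 were not examined.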

How the results depend on the processing

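Of 160 recalculated member log2 fold changes, 155 kept their direction and 5 turned, and 0 changed their call. Filters and variance estimates leave a log2 fold change as it was, so those settings could not turn a direction. The replicate block gave the same log2 fold changes as leaving out wild-type replicate 4, so the turn of Cd79a is counted under both. The number of members called was 0 under all 19 alternatives, with a lowest adjusted p of 0.0769 (DESeq2, Igll1), and the number of called genes of the wider lists was also 0 under all 19. The log2 fold change of Cd79a (-0.11) was -0.35 to 0.12 with single libraries left out, turning to 0.10 without wild-type replicate 4 and 0.12 without PROSER1 KO replicate 2. That of Blnk (0.07) was -0.11 to 0.30, turning to -0.11 without wild-type replicate 3 and -0.09 without PROSER1 KO replicate 1. Over the whole table, 42 genes were called, 17 without the trend, 80 with robust variance estimates, 165 with DESeq2, and 23 (without PROSER1 KO replicate 2) to 42 with a library left out. The causes were not tested. The summed level of the 9 genes had a log2 ratio of -0.08, and -0.24 to 0.09 with a library left out, within the spread between libraries. Vpreb3 and Igll1 gave no value at a minimum mean of 50.

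Deviations from the group means had correlations of 0.02, 0.06 and -0.11 between same-numbered libraries of both groups. Those between differently numbered libraries ran from -0.13 to 0.14. Same-numbered libraries thus did not stand out, which cannot settle whether they were handled together. With the replicate block, 35 genes and 0 members were called, and the log2 fold change of Cd79a turned to 0.10. At 6 to 68 read pairs, counting error limits Igll1 in particular.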
